A study of Mus musculus with 22 samples.

Results

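Expression of 46 imprinted mouse genes was followed through the first lineages of the embryo. The genes were chosen by name, as genes that mice are known to express mainly from the maternal or the paternal allele, and all 46 had a row among the 21881 gene symbols of the deposited counts. RNA was sequenced from 7 stem cell lines and from 8 embryos at embryonic day 3.5, the blastocyst stage. The lines were all wild type for Nanog, a homeodomain factor of the pluripotent epiblast: 2 embryonic stem (ES) lines, named serum free in their titles (ES_F1, ES_M2), 3 trophoblast stem (TS) lines (TS_F1, TS_F2, TS_M3) and 2 extraembryonic endoderm (XEN) lines (XEN_M1, XEN_M2), with F for female and M for male. ES, TS and XEN lines are cultured counterparts of the epiblast, the trophectoderm and the primitive endoderm. Each line gave 2 libraries from different passages, which the labels call technical replicates, so the line and not the library was the unit of replication, and each lineage rests on 2 or 3 lines. The embryos were 2 wild type, 2 heterozygous and 4 Nanog knockout (null), with as many females as males in each genotype. The sources used here do not state the strain, the targeted allele or the culture of the embryos. Embryo RNA was amplified before library preparation and line RNA was not, so embryos and lines were never compared with each other.

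Most genomic imprints are DNA methylation marks set in the egg or the sperm at imprinting control regions. They survive the demethylation of the early embryo and decide which parental copy of the neighbouring genes is active. Imprinted genes lie in clusters that often pair protein-coding genes with a long non-coding RNA, and many of them act on fetal growth and on the placenta. The 46 genes comprised 11 such domains with more than 1 gene here, and 6 genes taken singly. By textbook assignment 24 of the genes are expressed mainly from the maternal and 22 mainly from the paternal copy, some of them in certain tissues only. Genes of 1 domain share regulation and are not independent of each other. The counts do not separate the parental alleles, so every value below is the sum over both copies. By RefSeq annotation 7 pairs of these genes overlap: H13 with Mcts2, Blcap with Nnat, Mest with Copg2, Kcnq1 with Kcnq1ot1, Meg3 with Rtl1, Rtl1 with Rian, and Igf2r with Airn. Nespas is an antisense transcript of the Gnas locus. Whether counting used strand is not given in the sources used here, so reads within such pairs cannot be told apart.

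Total counts per library were 8201801 to 9551415 in ES, 9966333 to 16486987 in TS, 12659293 to 23677126 in XEN and 14768624 to 32231620 in embryos. Levels are given as CPM, in which a gene's count is scaled by the total count of its library or of the summed libraries of a line. CPM is not corrected for gene length, so levels of different genes are not compared. Summed levels of 7 ES, 6 TS and 8 XEN marker genes were each highest in the lineage of that name, and the targeted gene Nanog was at 53.6 to 137 CPM in Nanog-bearing embryos against 0.300 to 0.624 CPM in null embryos. A list of 6 markers of trophoblast giant cells and spongiotrophoblast, the differentiated progeny of TS cells, summed to 641 and 2388 CPM in the libraries of TS_M3 and to 0.617 to 6.67 CPM in those of the other TS lines. A list of 14 fibroblast markers, as feeder cells would carry, summed to 56.4 to 310.0 CPM in TS, 12.4 to 27.6 CPM in ES and 15.4 to 30.9 CPM in XEN, highest in the first library of TS_F2, where Col1a1 alone was at 86.9 CPM. A list of 8 myeloid markers summed to 229 to 950.0 CPM in TS, 409 to 703 CPM in ES and 8.83 to 22.3 CPM in XEN. Laptm5 carried most of it in ES, TS_F1 and TS_F2. In the first TS_M3 library Laptm5 was at 108 CPM and Csf1r at 99.1 CPM. XEN had 0.0790 to 0.380 CPM of Laptm5, and Csf1r (3.25 to 17.5 CPM) and Cd68 carried most of its sum. The leukocyte marker Ptprc was at or near 0.

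Imprinted genes differed widely between the lineages. With edgeR's quasi-likelihood test on the 7 lines (Benjamini-Hochberg adjusted p under 0.05, termed called), 41 of the 46 genes could be tested, and 27 were called in at least 1 comparison of lineages. Against TS, 8 were higher in ES and 11 lower, where 20.0% and 21.3% of all 14687 tested genes were called in these directions. Against XEN, 11 were higher in ES and 9 lower, beside 23.4% and 21.8% of all tested genes. Between TS and XEN, 9 were higher in TS and 6 lower, beside 20.3% and 16.4%. The called shares of the imprinted genes, 46.3%, 48.8% and 36.6%, were thus near those of the transcriptome, and the sizes of their differences stood above it: the median absolute log2 fold change was 2.34 against 0.80 for all tested genes in ES against TS, 2.02 against 0.93 in ES against XEN, and 1.24 against 0.71 in TS against XEN. These medians include genes that were not called and genes with few counts in 1 lineage. They were not tested, and all tested genes were not matched to the imprinted genes in level or spread. The 3 comparisons share lines, so their calls are not independent of each other. The fit of the lines had no sex term. Both XEN lines are male while ES and TS include both sexes, so in the XEN comparisons lineage and sex are partly confounded. Only the ES titles name serum free culture, so lineage and medium cannot be told apart either. With each line left out in turn, which leaves 1 line in an ES or XEN arm and assumes that it varies like the others, 9, 10 and 6 of the calls held every time. Those were Igf2, Cdkn1c, Peg3, Meg3, Rian, Mirg, Impact, Sfmbt2 and Gnas between ES and TS. Between ES and XEN they were Airn, Slc22a18, Peg3, Zim1, Sgce, Meg3, Rian, Mirg, Sfmbt2 and Gnas. Between TS and XEN they were Igf2, Cdkn1c, Slc22a18, Impact, Inpp5f and Gnas.

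**Figure D1:**
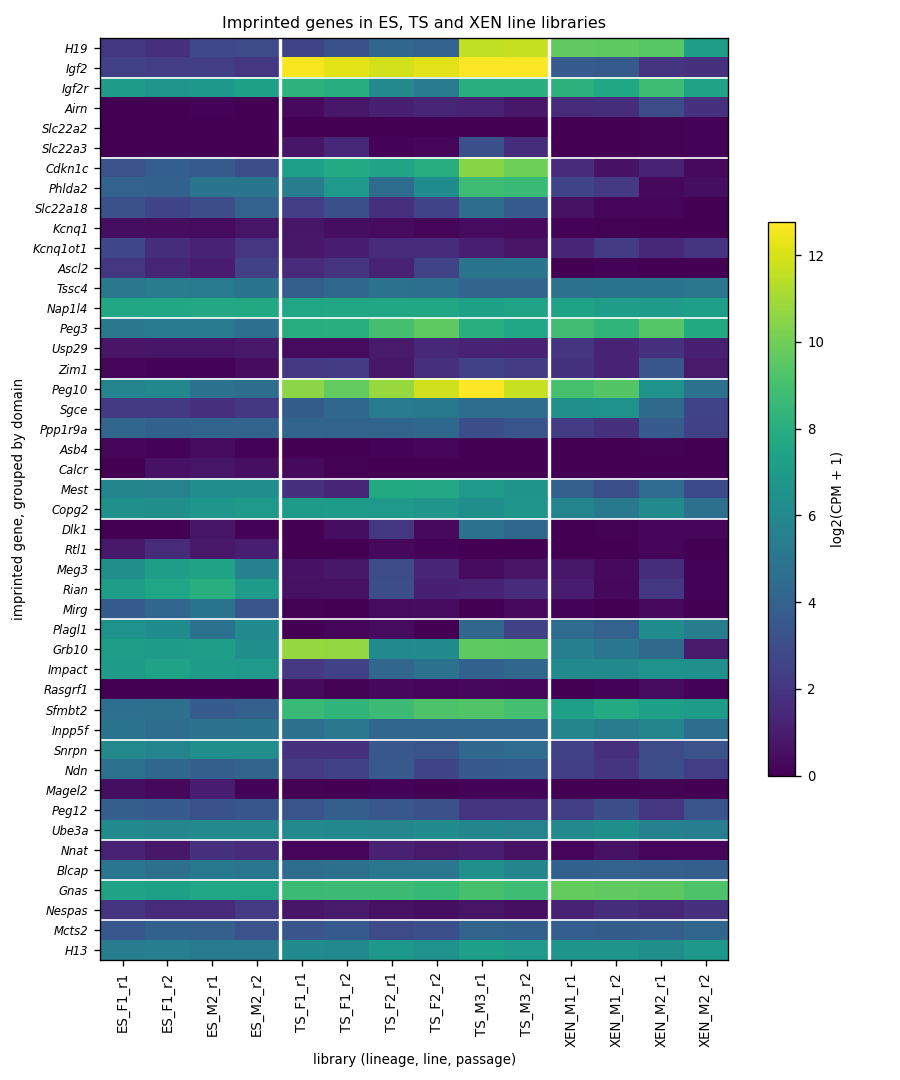
Levels of the 46 imprinted genes, as log2(CPM + 1), in the 14 line libraries (columns, 2 passages per line), with white lines between imprinted domains and between lineages. Meg3, Rian and Mirg are bright in ES alone, Igf2, Cdkn1c and Sfmbt2 are brightest in TS, and H19 is bright in XEN and in TS_M3 but not in the other TS lines.

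No parental side prevailed between ES and TS: of the genes higher in ES, 4 are maternally and 4 paternally expressed, and of those lower in ES, 5 and 6. Against XEN, 8 maternally and 3 paternally expressed genes were higher in ES, and 3 and 6 were lower. Between TS and XEN, 7 maternally and 2 paternally expressed genes were higher in TS, and 2 and 4 were lower. These counts were not tested, because 5 of the maternally expressed genes that were higher in TS than in XEN lie in the single Kcnq1ot1 domain.

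**Figure D2:**
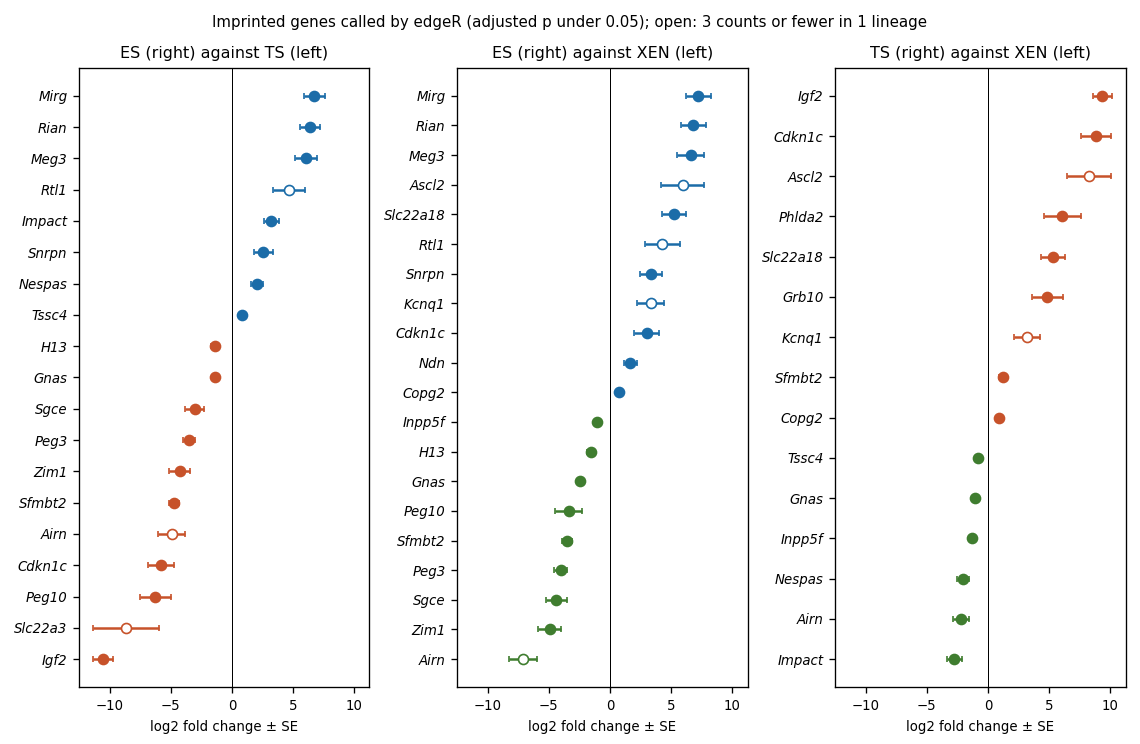
Log2 fold changes with their standard errors for the imprinted genes called between lineages, each panel sorted by size, where the right side is the lineage named first. Open circles mark genes with 3 counts or fewer in 1 lineage, whose fitted value depends on the prior count. Mirg, Rian and Meg3 top both ES panels, Igf2 lies at the far end for TS in both TS panels, and Gnas is lowest in ES and highest in XEN.

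The maternally expressed non-coding RNAs of the Dlk1 and Meg3 domain were high in ES and low in the other lineages. On chromosome 12, Meg3, the snoRNA host Rian and the microRNA host Mirg follow one another downstream of Dlk1, a Notch-ligand-like protein. Meg3 was at 113 CPM in ES_F1 and 106 CPM in ES_M2, at 0.642, 3.82 and 0.454 CPM in TS_F1, TS_F2 and TS_M3, and at 0.452 and 1.34 CPM in XEN_M1 and XEN_M2. Every ES library, from 48.5 to 163 CPM, lay above every TS and XEN library, of which the highest was 6.56 CPM. The log2 fold change of Meg3 was 6.04 (SE 0.89, adjusted p = 0.00225) against TS and 6.60 (SE 1.09, adjusted p = 0.00274) against XEN. Rian was at 161 and 196 CPM in the ES lines, 0.490, 3.86 and 1.77 CPM in the TS lines and 0.505 and 1.99 CPM in the XEN lines. Its log2 fold changes were 6.42 (SE 0.83, adjusted p = 0.00140) and 6.83 (SE 1.01, adjusted p = 0.00175). Mirg was at 15.1 and 20.0 CPM in ES and at no more than 0.311 CPM in any other line, with log2 fold changes of 6.75 (SE 0.84, adjusted p = 0.00121) and 7.23 (SE 1.03, adjusted p = 0.00149). Between TS and XEN none of these RNAs was called, with log2 fold changes from 0.41 to 0.56 and SEs from 0.81 to 1.00. In TS the first library of TS_F2 held most of the signal, with 6.56 CPM of Meg3 and 7.04 CPM of Rian, against 1.48 and 1.15 CPM in the second, and it is also the library with the most fibroblast RNA. The part of those cells in these levels was not tested.

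The paternally expressed genes of the same domain did not follow it alike. Rtl1, a retrotransposon-derived protein needed in the placenta, had 43 counts over the 4 ES libraries and 3 each over the TS and the XEN libraries, ratios of 30.5 (95% exact counting interval 9.75 to 154) and 27.5 (8.82 to 139). It was called against both, with adjusted p = 0.0234 and 0.0411. The first call was lost without ES_F1, ES_M2 or TS_F1 (adjusted p up to 0.135), and the second without any 1 ES or XEN line (adjusted p up to 0.171). Rtl1 overlaps Meg3 and Rian, so its reads may in part be theirs. Dlk1 was at 0 to 0.628 CPM in the ES libraries. In the first and second library it was at 25.7 and 18.1 CPM in TS_M3, and at 3.18 and 0.247 CPM in TS_F2. TS_F1 and XEN were at or under 0.370 CPM. Dlk1 was not called in any comparison (adjusted p = 0.0864 for ES against TS).

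RefSeq lists 2 starts of Meg3. The sequence before the first is shown because the RNAs of this domain had the largest differences toward ES. Meg3 also comes first in the run of Meg3, Rian and Mirg. The 250 bases lie at chr12:109540746-109540995 on the plus strand of GRCm38.p6, end just before this first listed start and are written 5′ to 3′. Capitals mark the letters TGCCGC, the hexamer that the imprint-keeping zinc finger protein ZFP57 recognises when methylated, on either strand (GCGGCA on this one).
Meg3 promoter: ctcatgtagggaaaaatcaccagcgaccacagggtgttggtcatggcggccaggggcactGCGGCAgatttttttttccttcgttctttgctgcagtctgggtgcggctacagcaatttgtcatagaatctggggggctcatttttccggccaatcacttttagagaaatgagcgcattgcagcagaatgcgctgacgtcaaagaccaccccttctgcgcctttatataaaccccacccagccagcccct
The stretch holds 1 such hexamer and 10 CpG. The 250 bases before the second listed start, at chr12:109545148-109545397, hold 0 hexamers and 0 CpG. RefSeq windows of 300 bases (250 before to 50 after a start) matched 37 of the imprinted genes, some with several windows that overlap. At least 1 window holds the hexamer on either strand for 12 of these genes (32.4%), against 13.1% of all 27025 genes. Imprinted genes have more windows each, 1.46 against 1.22, and counted by window the shares were 24.1% and 11.6%. The hexamer occurs more than once for 2 of them, Calcr and Mest. The CpG number of the window with the most had a median of 17.0 for the imprinted genes and 8.0 for all genes. A match of letters is a description and says nothing of binding.

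Igf2, the paternally expressed fetal growth factor, had the largest called log2 fold change between lineages among the 46 genes. It was at 4.30 and 3.60 CPM in ES_F1 and ES_M2, at 5639, 4249 and 6909 CPM in TS_F1, TS_F2 and TS_M3, and at 11.5 and 2.67 CPM in XEN_M1 and XEN_M2. The TS libraries, from 3808 CPM upward, stood far above all others. The log2 fold change between ES and TS was -10.55, lower in ES (SE 0.85, adjusted p = 0.000261), and TS was higher than XEN by 9.37 (SE 0.81, adjusted p = 0.000247). ES and XEN were not called apart (-1.18, SE 0.61, adjusted p = 0.154). H19, the maternally expressed non-coding RNA that shares its enhancers with Igf2, followed another order. It was at 2.75 and 6.29 CPM in ES, 784 and 475 CPM in XEN, and 6.79, 16.4 and 3099 CPM in TS_F1, TS_F2 and TS_M3. XEN libraries (139 to 788 CPM) did not overlap ES libraries (2.39 to 6.52 CPM), but H19 was called in no comparison (ES against XEN, log2 fold change -7.46, SE 3.06, adjusted p = 0.0887). Its SE comes from a spread shared by all lineages. Without TS_F1, TS_F2 or TS_M3 in the fit, ES and XEN were called apart. High Igf2 was thus measured both with low H19, in TS_F1 and TS_F2, and with high H19, in TS_M3.

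In the Igf2r and Airn domain, Igf2r encodes the receptor that clears IGF2, and Airn is the paternally expressed RNA that crosses and silences it. Igf2r was at 114 and 135 CPM in ES, 276, 49.4 and 267 CPM in TS and 234 and 339 CPM in XEN, and was not called. Airn had 1 count in the 4 ES libraries, 68 in TS and 243 in XEN. The TS to ES ratio was 32.0 (5.55 to 1282) and the XEN to ES ratio 126 (22.5 to 5015), called with adjusted p = 0.0120 and 0.00238. The first was lost without ES_F1 (adjusted p = 0.0846). Airn was lower in TS than in XEN (log2 fold change -2.21, SE 0.67, adjusted p = 0.0376), a call lost without any 1 ES or TS line or without XEN_M2 (adjusted p up to 0.229). Slc22a3, a maternally expressed organic cation transporter of this domain, had 0 counts in ES and 144 in TS, at least 22.6-fold higher in TS when ES is set to a floor of 3 counts over the group. It was called (adjusted p = 0.0437), but not without any 1 ES or XEN line (adjusted p up to 0.152), and it was left untested without TS_F1 or TS_M3. Slc22a2 had counts in XEN_M2 alone and was not tested.

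**Figure D3:**
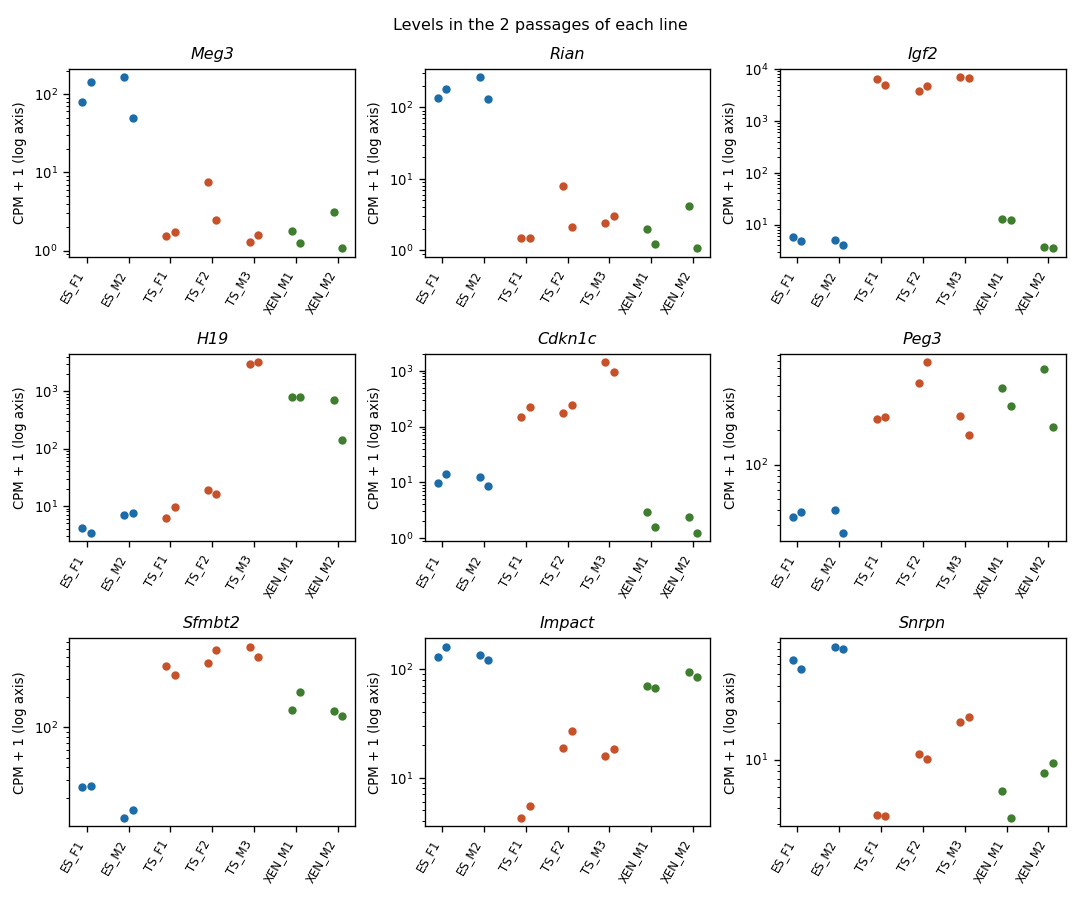
CPM + 1 on a log axis for 9 imprinted genes in the 7 lines, with a point for each of the 2 passages (blue ES, red TS, green XEN). The TS lines lie close for Igf2 and Sfmbt2 and apart for H19, which reaches 3099 CPM in TS_M3 alone.

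Of the 7 maternally expressed genes of the Kcnq1ot1 domain on chromosome 7, 5 were higher in TS than in XEN, 1 was lower and 1 was not called. Against XEN, 4 were higher in ES and 3 were not called, and between ES and TS 1 was higher in each and 5 were not called. Cdkn1c, an inhibitor of cyclin-dependent kinases that restrains growth, was at 11.02 and 9.36 CPM in ES, 185, 214 and 1178 CPM in TS and 1.06 and 0.932 CPM in XEN. The libraries of the lineages did not overlap. TS was higher than XEN by 8.82 (SE 1.21, adjusted p = 0.00165) and ES lower than TS by -5.81 (SE 1.04, adjusted p = 0.00481). ES was higher than XEN by 3.01 (SE 1.00, adjusted p = 0.0425), a call lost without any 1 ES or XEN line (adjusted p up to 0.155) and without the second library of XEN_M2 (adjusted p = 0.0583). Slc22a18, a transporter, was at 6.54 and 11.1 CPM in ES, 5.87, 3.73 and 16.6 CPM in TS and 0.266 and 0.0932 CPM in XEN. It was lower in XEN than in ES (5.22, SE 0.99, adjusted p = 0.00481) and than in TS (5.32, SE 0.97, adjusted p = 0.00511). Phlda2, which limits placental growth, was at 14.9 and 29.6 CPM in ES, 77.2, 49.6 and 413 CPM in TS and 4.25 and 0.280 CPM in XEN. It was called between TS and XEN (6.08, SE 1.49, adjusted p = 0.0167), but not without XEN_M2 (adjusted p = 0.0625).

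Ascl2, a transcription factor that trophoblast progenitors need, had 93 counts in ES, 804 in TS and 2 in XEN. It was called lower in XEN against TS (ratio 363, 100.3 to 3006, adjusted p = 0.0103) and against ES (ratio 89.4, 24.1 to 749, adjusted p = 0.0287). Leaving out a XEN line ended both calls, and leaving out an ES line ended the second (adjusted p up to 0.129). Kcnq1, a potassium channel subunit, was at or under 0.728 CPM in every line library and had 2 counts in XEN. The ES to XEN ratio of 14.4 (3.35 to 129.9) and the TS to XEN ratio of 13.1 (3.32 to 113) were called with adjusted p = 0.0407 and 0.0459. The latter call was lost in each of the 6 fits with a line left out that still tested Kcnq1, and the former in 4 of 6 (adjusted p up to 0.173). Kcnq1ot1, the paternally expressed antisense RNA that silences the domain, was at 3.73 and 2.17 CPM in ES, 0.918, 2.00 and 0.817 CPM in TS and 3.03 and 2.21 CPM in XEN, and was not called. Also in this domain, Tssc4 was lower in TS than in ES (0.79, SE 0.24, adjusted p = 0.0367) and than in XEN (-0.84, SE 0.24, adjusted p = 0.0313). Both Tssc4 calls were lost in 6 of the 7 fits with a line left out, all but that without TS_F2 (adjusted p up to 0.206). Nap1l4, a histone chaperone, was at 139 to 213 CPM in all lines with log2 fold changes from 0.06 to 0.17 and SEs from 0.14 to 0.16.

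Of the paternally expressed genes of the Peg3 and Peg10 domains, Peg3, Peg10 and Sgce were lower in ES than in TS and XEN, and Usp29 was not called. Peg3, a zinc finger protein, was at 35.9 and 31.7 CPM in ES, 255, 662 and 220 CPM in TS and 377 and 498 CPM in XEN. All ES libraries, up to 38.9 CPM, lay below all TS and XEN libraries, from 181 CPM. ES was lower than TS by -3.53 (SE 0.51, adjusted p = 0.00214) and than XEN by -4.03 (SE 0.54, adjusted p = 0.00113). Zim1, the neighbour of Peg3 that is expressed from the maternal copy, moved the same way, from 0.115 and 0.211 CPM in ES to 1.64 to 4.08 CPM in TS and 1.86 and 6.31 CPM in XEN. Its log2 fold changes were -4.28 (SE 0.90, adjusted p = 0.00876), lost without an ES line (adjusted p up to 0.0783), and -4.94 (SE 0.94, adjusted p = 0.00489). Usp29, which starts next to Peg3, was at 0.303 to 2.86 CPM in all line libraries and was not called.

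Peg10, a retrotransposon-derived protein essential for the placenta, was at 57.1 and 24.7 CPM in ES, 1146, 2779 and 4895 CPM in TS and 606 and 64.8 CPM in XEN. It was lower in ES than in TS by -6.25 (SE 1.25, adjusted p = 0.00719), lost without an ES line (adjusted p up to 0.0702). Against XEN its log2 fold change was -3.36 (SE 1.11, adjusted p = 0.0412) and rested on XEN_M1. Without that line it was -1.01 (adjusted p = 0.387), and it also lost its call without an ES line or TS_F2. Sgce, a sarcoglycan that shares the Peg10 promoter region, was at 3.50 and 2.75 CPM in ES, 15.4, 36.3 and 22.7 CPM in TS and 89.0 and 14.2 CPM in XEN. It was lower in ES by -3.05 against TS (SE 0.80, adjusted p = 0.0201), lost without an ES line (adjusted p up to 0.121), and by -4.38 against XEN (SE 0.87, adjusted p = 0.00591), where without XEN_M1 the log2 fold change was -2.54. Ppp1r9a, a maternally expressed actin-binding protein of the domain, was at 2.95 to 17.9 CPM in the lines and was not called. Asb4 and Calcr, also in the domain, were too low to test in the lines, with no line library above 0.628 CPM.

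Among the imprinted genes that stand alone, Sfmbt2, a Polycomb-type protein, had the smallest adjusted p in the comparison of ES and TS after Igf2. It was at 24.7 and 12.95 CPM in ES, 363, 513 and 551 CPM in TS and 197 and 138 CPM in XEN. No library of 1 lineage overlapped another. ES was lower than TS by -4.72 (SE 0.42, adjusted p = 0.000371) and than XEN by -3.48 (SE 0.41, adjusted p = 0.000676). TS was higher than XEN by 1.24 (SE 0.35, adjusted p = 0.0285), a call lost without TS_F2, TS_M3 or either XEN line (adjusted p up to 0.151). Impact, a regulator of translation, was at 146 and 128 CPM in ES, 3.89, 22.2 and 16.3 CPM in TS and 66.9 and 89.98 CPM in XEN. It was lower in TS than in ES (3.21, SE 0.61, adjusted p = 0.00587) and than in XEN (-2.75, SE 0.60, adjusted p = 0.0106). Inpp5f, a phosphatase, was at 39.5 to 55.4 CPM in XEN, except for 23.9 CPM in the second library of XEN_M2, against 17.3 to 31.9 CPM in TS and 23.1 to 29.1 CPM in ES. It was higher in XEN than in TS (-1.33, SE 0.25, adjusted p = 0.00596) and than in ES (-1.03, SE 0.28, adjusted p = 0.0209), the latter lost without any 1 ES or XEN line (adjusted p up to 0.118).

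Grb10, an adaptor that dampens growth factor receptors, was at 133 and 112 CPM in ES, 1697, 68.5 and 760 CPM in TS and 35.9 and 12.6 CPM in XEN. It was called between TS and XEN (4.85, SE 1.28, adjusted p = 0.0226), lost without any 1 ES or XEN line (adjusted p up to 0.133). Plagl1, a zinc finger transcription factor, was at 82.0 and 48.4 CPM in ES, 17.5 and 60.5 CPM in XEN, and 0.0612, 0.133 and 10.4 CPM in TS_F1, TS_F2 and TS_M3, without a call (adjusted p = 0.0830 for ES against TS). Mest, a paternally expressed protein of the hydrolase family, was at 53.2 and 76.4 CPM in ES, 2.02, 211 and 108 CPM in TS and 10.1 and 15.1 CPM in XEN, also without a call. Copg2, its coatomer neighbour, was lower in XEN, at 41.7 and 51.1 CPM, than in TS, at 91.6 to 125 CPM (0.94, SE 0.20, adjusted p = 0.0105, lost without XEN_M1, adjusted p = 0.0696). It was also lower than in ES (0.71, SE 0.22, adjusted p = 0.0326, lost without any 1 ES or XEN line, adjusted p up to 0.219). Rasgrf1 was at or under 0.307 CPM in all line libraries and was not tested.

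In the Snrpn domain, named for a paternally expressed spliceosomal protein, Snrpn was at 57.8 and 79.8 CPM in ES, 2.51, 9.55 and 20.3 CPM in TS and 3.19 and 7.43 CPM in XEN. ES libraries, from 53.0 CPM, lay above all others, up to 21.3 CPM. ES was higher than TS by 2.57 (SE 0.77, adjusted p = 0.0329, lost without either ES line or TS_F2, adjusted p up to 0.132) and than XEN by 3.35 (SE 0.92, adjusted p = 0.0216, lost without any 1 ES or XEN line, adjusted p up to 0.110). Ndn, a MAGE-family protein, was at 22.3 and 15.4 CPM in ES, 4.13 to 10.8 CPM in TS and 3.37 and 5.93 CPM in XEN. It was called against XEN alone (1.68, SE 0.56, adjusted p = 0.0420), lost without any 1 ES or XEN line or TS_F2 (adjusted p up to 0.200). Ube3a, a ubiquitin ligase that neurons express from the maternal copy, was at 45.2 to 73.9 CPM in all lines. Peg12 was at 2.81 to 12.5 CPM, and neither was called. Magel2 was at or under 1.05 CPM in all libraries and was not tested.

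Gnas, the stimulatory G protein subunit, was lowest in ES, at 156 and 184 CPM, intermediate in TS, at 424, 398 and 477 CPM, and highest in XEN, at 819 and 674 CPM. The libraries of the lineages did not overlap (149.5 to 189 CPM, 372 to 523 CPM and 581 to 871 CPM). The log2 fold changes were -1.42 for ES against TS (SE 0.20, adjusted p = 0.00179), -2.47 for ES against XEN (SE 0.22, adjusted p = 0.000212) and -1.05 for TS against XEN (SE 0.18, adjusted p = 0.00431). Nespas, the antisense RNA of the locus, did not follow Gnas: it was at 2.30 and 2.75 CPM in ES, 0.795, 0.444 and 0.499 CPM in TS and 1.89 and 2.08 CPM in XEN. It was lower in TS than in ES (2.04, SE 0.48, adjusted p = 0.0137, lost without an ES line, adjusted p up to 0.0912) and than in XEN (-2.03, SE 0.48, adjusted p = 0.0142, lost without XEN_M2, adjusted p = 0.0515). H13, a signal peptide peptidase, was lower in ES, at 41.4 and 37.8 CPM, than in TS, at 67.8 to 130.2 CPM (-1.40, SE 0.31, adjusted p = 0.0103, lost without an ES line, adjusted p up to 0.0803). It was also lower than in XEN, at 95.1 and 92.6 CPM (-1.58, SE 0.33, adjusted p = 0.00680, lost without ES_M2, adjusted p = 0.0534). Mcts2, the retrogene inside H13, was at 7.15 to 15.4 CPM in all lines without a call. Nnat, a proteolipid, was at or under 2.51 CPM in every line library, and its neighbour Blcap was at 13.8 to 68.2 CPM in the lines. Neither was called.

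The 3 TS lines differed from each other in many imprinted genes. A gene was counted here when its highest and lowest lines differed at least 4-fold, its highest line had at least 1 CPM and the libraries of these 2 lines did not overlap. In TS this held for 18 of 37 imprinted genes that reached 1 CPM (48.6%), against 7.70% of all genes. In XEN it held for 4 of 33 (12.1%) against 4.60%, and in ES for 0 of 35 against 1.14%. These are descriptions of single lines with no test between lines, since the 2 libraries of a line are not independent. TS_M3 was highest for 10 of the 18 genes and TS_F1 was lowest for 12. TS_M3 is also the male TS line, so line and sex cannot be told apart.

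Of the genes counted here, those highest in TS_M3 were the maternally expressed H19, Cdkn1c, Phlda2, Slc22a18, Ascl2 and Slc22a3. The paternally expressed Peg10, Dlk1, Plagl1 and Snrpn were also highest in TS_M3. H19 was at 2962 and 3212 CPM in the libraries of TS_M3, at 17.8 and 15.2 CPM in TS_F2 and at 5.22 and 8.40 CPM in TS_F1, a 456-fold range between lines. Ascl2 was at 28.9 and 29.8 CPM in TS_M3 and at 1.45 to 5.19 CPM in the others. Markers of giant cells and spongiotrophoblast moved with this line: all 6 were above 1 CPM in both TS_M3 libraries, and Prl3d1 was at 193 and 757 CPM there, against 0 to 1.24 CPM elsewhere in TS. The markers summed to 641 CPM in the first TS_M3 library and 2388 CPM in the second. Prl3d1 and Prl2c2 (369 and 1479 CPM) made up most of the sum, and Prl3b1 and Ctsq were also higher in the second library. Tpbpa, at 8.23 and 6.38 CPM, and Prl8a9, at 6.12 and 5.72 CPM, were not, so the markers did not change alike. In the same order Phlda2 was at 441 and 390 CPM, Cdkn1c at 1431 and 969 CPM, Slc22a18 at 22.8 and 11.5 CPM and Slc22a3 at 7.53 and 2.24 CPM, while H19 and Ascl2 are given above. The part of differentiated cells in these levels was not tested.

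The female lines differed from each other as well, at genes of both alleles. Mest was at 2.49 and 1.54 CPM in TS_F1, 213 and 209 CPM in TS_F2 and 120.2 and 97.8 CPM in TS_M3, a 104-fold range. Grb10 ran the other way, with 1717 and 1678 CPM in TS_F1, 65.4 and 71.3 CPM in TS_F2 and 765 and 756 CPM in TS_M3. Igf2r was at 63.8 and 37.0 CPM in TS_F2 and at 246 to 305 CPM in the other TS libraries. The 2 passages of a line lay close to each other for Mest and Grb10, and the libraries of the 3 lines did not overlap. Impact, Snrpn, Nnat and Usp29 were lowest in TS_F1, as was Peg10 (1467 and 819 CPM against 1749 to 6792 CPM). Plagl1 was at 0 and 0.123 CPM in TS_F1, 0.289 and 0 CPM in TS_F2, and 17.3 and 4.81 CPM in TS_M3. Meg3 and Rian, highest in TS_F2, are the genes described above whose TS signal lay mostly in the library with the most fibroblast RNA. Fibroblast markers summed to 310.0 CPM in the first TS_F2 library and 69.5 CPM in the second, and their part in Mest was not tested. Igf2, by contrast, ranged 1.63-fold, Sfmbt2 1.52-fold and Gnas 1.20-fold between TS lines.

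**Figure D4:**
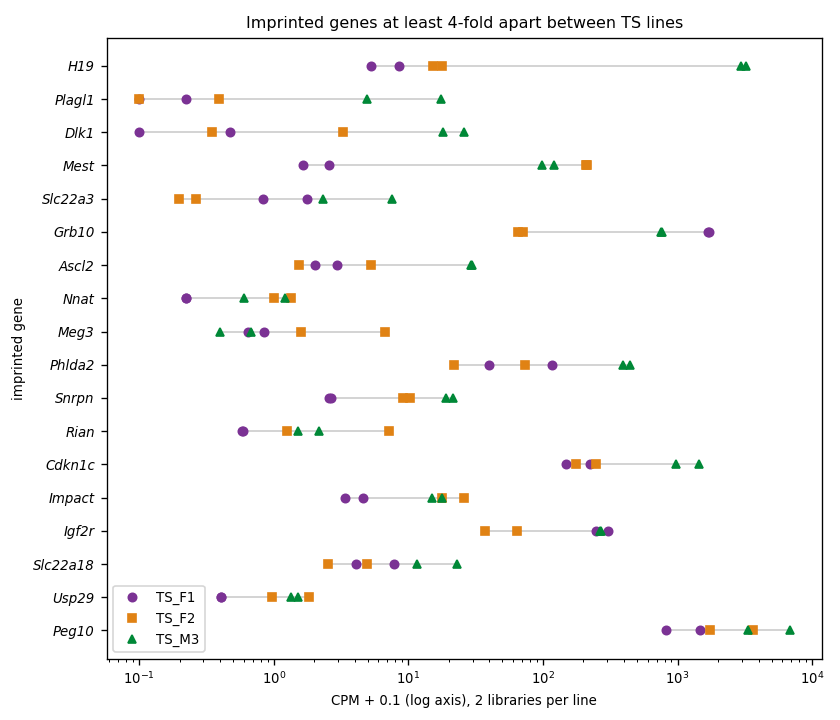
The 18 imprinted genes that differed at least 4-fold between TS lines, as CPM + 0.1 on a log axis, with the 2 libraries of each line (circles TS_F1, squares TS_F2, triangles TS_M3), sorted by the fold. The pairs of equal symbols lie close together for H19, Mest and Grb10, and the lines stand apart.

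RefSeq promoter sequences of Mest and Plagl1 are shown as examples of genes low in TS_F1 and far higher in another TS line. They do not stand for all such genes. Mest had the 104-fold range given above, and Plagl1 had 2 counts in TS_F1, with TS_M3 libraries that differed from each other, so no fold is given for it. Dlk1, also paternally expressed and 117-fold apart between lines, has no hexamer in its RefSeq window. Of the other counted genes lowest in TS_F1, Ascl2, Rian and Usp29 have 0 in their windows and Nnat has 1. Snrpn has 0 in the 250 bases before each listed start, and 1 in the 300-base window of the last. No window was found for H19, Cdkn1c, Impact and Peg10. Both stretches are the 250 bases before a start on the plus strand of GRCm38.p6, the second listed Mest start at chr6:30737800-30738049 and Plagl1 at chr10:13090582-13090831. Capitals mark the ZFP57 hexamer on either strand.
Mest promoter: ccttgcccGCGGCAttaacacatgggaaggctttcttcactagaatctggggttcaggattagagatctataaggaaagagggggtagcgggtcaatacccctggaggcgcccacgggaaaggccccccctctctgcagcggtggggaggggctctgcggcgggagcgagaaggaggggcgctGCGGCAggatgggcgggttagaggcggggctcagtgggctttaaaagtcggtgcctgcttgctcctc
Plagl1 promoter: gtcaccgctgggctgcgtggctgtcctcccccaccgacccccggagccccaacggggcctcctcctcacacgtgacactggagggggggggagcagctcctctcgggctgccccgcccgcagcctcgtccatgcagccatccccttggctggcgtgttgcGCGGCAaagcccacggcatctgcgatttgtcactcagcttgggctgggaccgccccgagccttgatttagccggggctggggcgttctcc
The Mest stretch holds the hexamer in 2 places and 14 CpG, and the Plagl1 stretch holds it in 1 place and 19 CpG. The 250 bases before the first listed Mest start, at chr6:30733256-30733505, hold 0 hexamers and 7 CpG. No methylation was measured in these samples.

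Within XEN the lines parted at Igf2, Phlda2, Peg10 and Sgce, which were all higher in XEN_M1. Peg10 was at 523 and 655 CPM in the libraries of XEN_M1 and at 89.6 and 26.6 CPM in those of XEN_M2. Sgce was at 85.1 and 91.3 CPM against 20.2 and 4.90 CPM, and Igf2 at 11.7 and 11.4 CPM against 2.77 and 2.53 CPM. The passages of XEN_M2 also differed from each other: 17 of its 32 imprinted genes above 1 CPM differed at least 2-fold between its libraries, against 2 to 9 in the other lines, and 16.7% of all genes did, against 4.59% to 9.82%. H19 was at 692 and 139 CPM, Grb10 at 20.2 and 0.869 CPM and Peg3 at 683 and 213 CPM in its first and second library. Without the second library of XEN_M2, 16 imprinted genes in place of 20 were called between ES and XEN, with Cdkn1c, Copg2, Ndn and Rtl1 lost. Between TS and XEN 13 in place of 15 were called, with Copg2 and Kcnq1 lost.

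In the embryos, no imprinted gene was called between Nanog-null and Nanog-bearing embryos (wild type and heterozygous), or between null and wild-type embryos. Of all 12965 genes tested, 0% were called higher and 0.0154% lower in the null embryos in each comparison. Among the 36 imprinted genes tested, 0 had an unadjusted p under 0.05 in either comparison by edgeR, beside 4.97% and 3.86% of all genes, while DESeq2 called 0 as well, with 2 and 1 at an unadjusted p under 0.05. Sex was a term of the fit. The gene with the smallest p was Nnat, at 0, 0, 0 and 1.15 CPM in the bearing embryos and 0, 1.92, 5.04 and 2.00 CPM in the null embryos F1, F2, M1 and M2 (log2 fold change 5.80, SE 2.60, adjusted p = 0.931). The groups overlap at 0. Igf2r was at 95.8 and 97.9 CPM in wild type, 89.3 and 156 CPM in heterozygous and 141, 181, 71.7 and 359.7 CPM in null embryos (0.95, SE 0.46, adjusted p = 0.931). Ndn had 0 counts in all bearing embryos and 12 and 11 in the null embryos M2 and F2, and its fitted log2 fold change of 5.72 (SE 2.72) depends on the prior count. Of the 14 fibroblast markers, 3 and 4 were at 0 in M2 and F2, against 11 to 13 in each other embryo. They summed to 24.8 and 6.12 CPM there, against 2.68 to 14.5 CPM. The part of such RNA in the Ndn counts was not tested. Ndn, Sgce (-2.67, SE 1.79), Ppp1r9a (-1.64, SE 1.21) and Inpp5f (0.85, SE 0.67) were next, each with an adjusted p from 0.931 to 0.973.

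Averaged over the 8 embryos, 17 imprinted genes reached 10 CPM, and for 0 of them did null and bearing embryos not overlap, against 4.84% of all genes at this level. Snrpn was at 223 and 251 CPM in wild type, 294 and 289.9 CPM in heterozygous and 203, 266, 258 and 378 CPM in null embryos (0.18, SE 0.27). Sfmbt2 was at 99.1 and 48.2, 62.9 and 89.99, and 53.8, 76.6, 59.9 and 19.7 CPM in the same order (-0.46, SE 0.41). Kcnq1ot1 was at 94.4 and 54.1, 45.8 and 60.5, and 48.7, 28.0, 86.4 and 18.9 CPM (-0.40, SE 0.48). Null embryo M2 was the lowest for Sfmbt2 and Kcnq1ot1. The others at this level were Nap1l4, Mcts2, Ube3a, Blcap, Copg2, Gnas, Tssc4, Inpp5f, H13, Impact, Mest, Grb10 and Meg3, with log2 fold changes from -0.66 to 1.26 and SEs from 0.34 to 1.79. Single embryos varied widely: Impact was at 0.931 CPM in 1 wild-type embryo and 18.99 CPM in the other, and Grb10 ranged from 0.732 to 35.4 CPM among the nulls. A mean of at least 1 CPM was reached by 29 of the 46 genes. Slc22a2, Slc22a3, Slc22a18 and Magel2 had 0 counts in all 8 embryos. With Kcnq1, Ascl2, Zim1, Dlk1, Rtl1 and Rasgrf1 they make up the 10 genes too low to test.

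Igf2 and Peg10 were at or near 0 in some null embryos. Igf2 was at 14.5 and 8.44 CPM in wild type, 6.88 and 5.28 CPM in heterozygous and 10.3, 0.0914, 11.6 and 0.150 CPM in the null embryos F1, F2, M1 and M2. Peg10 was at 4.53 and 7.69, 11.4 and 5.35, and 0, 2.97, 10.1 and 0.150 CPM. Such low values were not particular to these genes. Genes with at most 3 counts in 1 embryo and a mean of at least 5 CPM in the others numbered 133 to 809 in the null embryos, most in M2 and F1, and 40 to 68 in the bearing embryos. The cause was not tested. In whole embryos with amplified RNA, fewer cells of a type, less RNA per cell and transcripts lost in preparation cannot be told apart. An absent call therefore does not show that imprinted genes were the same in null embryos.

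**Figure D5:**
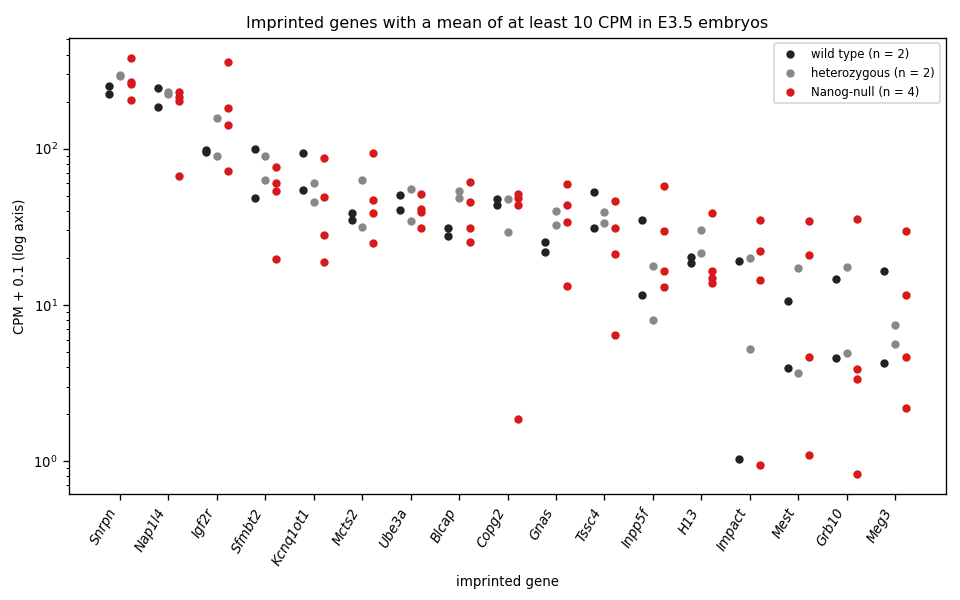
Levels as CPM + 0.1 on a log axis of the 17 imprinted genes that averaged 10 CPM or more, with a point per embryo (black wild type, grey heterozygous, red Nanog-null), sorted by mean. Null and bearing embryos overlap for all 17 genes, and single null embryos lie far from the rest for Copg2 and Nap1l4.

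Factors that set or keep imprints and DNA methylation were described with a list of 24 genes, of which 23 were tested. In ES against TS 12 were higher and 3 lower, in ES against XEN 12 higher and 2 lower, and in TS against XEN 4 higher and 3 lower. The called shares were 65.2%, 60.9% and 30.4%, against 41.3%, 45.1% and 36.7% of all tested genes, and the list's median log2 fold change was 0.88, 0.87 and 0.11, against -0.02, 0.05 and 0.02 for all genes. Tet1, which oxidises methylated cytosine, was at 474 and 478 CPM in ES and at 16.2 to 36.7 CPM in the other lines (4.04 against TS, SE 0.33, adjusted p = 0.000259). Trim28, the corepressor that ZFP57 recruits, was at 1868 and 1955 CPM in ES, 679.7 to 742 CPM in TS and 445 and 505 CPM in XEN (1.67 against XEN, SE 0.16, adjusted p = 0.000283). Dnmt3l, a cofactor of de novo methylation, was at 24.7 to 121 CPM in TS and at 0.531 and 1.06 CPM in XEN (6.25, SE 0.87, adjusted p = 0.00173). Zfp42, also known as Rex1, was higher in ES than in TS (3.80, SE 0.32, adjusted p = 0.000310), and Zfp445, a zinc finger protein that helps to keep imprints, was lower in TS than in XEN (-1.42, SE 0.29, adjusted p = 0.00790).

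In embryos 0 of the 23 factors were called. Between null and bearing embryos 5 had an unadjusted p under 0.05 by edgeR (21.7% against 4.97% of all genes). Of these, 4 were lower and 1 was higher in the null embryos. Between null and wild-type embryos 3 did (13% against 3.86%), 2 lower and 1 higher. The higher factor was Dppa3 in both, with log2 fold changes of 0.91 (SE 0.38) and 1.43 (SE 0.49). Null and bearing embryos overlapped for Dppa3 (3208 to 9614 against 2166 to 5697 CPM). Zfp57 was first by p, at 110 and 114 CPM in wild type, 84.3 and 84.0 CPM in heterozygous and 17.2, 34.9, 35.6 and 27.4 CPM in the null embryos F1, F2, M1 and M2. All 4 null embryos lay below all 4 bearing embryos. The same held for Uhrf1 (91.5 to 134 against 192 to 259 CPM) and Dnmt3b (54.0 to 137 against 139 to 189 CPM). Null and bearing embryos did not overlap for 4.84% of all genes that averaged 10 CPM or more. This share was not counted for the 23 factors. The log2 fold change of Zfp57 was -1.65 (SE 0.35), with an unadjusted p of 0.000762 and an adjusted p of 0.931 in edgeR. Zfp57 thus did not pass the correction over all genes.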

How the data were processed

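Per the labels' protocols, embryo cDNA was made with SMARTer UltraLow and a TruSeq DNA kit, and line libraries with a TruSeq RNA kit. The authors deposited whole-number counts per gene symbol for 22 libraries. Per the submitters' processing notes, TopHat 1.3.1, edgeR and genome build mm9 were used. The sources used here do not give the counting program, annotation or strand setting. The authors also deposited a list of genes that they call Nanog-regulated. It holds 0 of the 46 genes, and its 22 value columns were not used.

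Counts of the 2 libraries of a line were summed, and 1 edgeR 4.0.16 model (R 4.3.3) covered all 7 lines (TMM, filterByExpr, robust quasi-likelihood test, Benjamini-Hochberg threshold 0.05). Embryos were fitted with 3 genotype groups and sex. An SE is the size of the log2 fold change over the root of its F statistic. Alternatives used DESeq2 1.42.0 and limma 3.58.1. Scripts were tested on simulated data. Counting intervals are exact at 95% and cover counting error only, as does the floor of 3 counts. Nothing states that samples came from separate litters or cultures beyond the lines and passages named, so p-values measure only the spread between these samples. Passage numbers did not pair lines (correlations of deviations from -0.43 to 0.18, 3 of 21 over 0.1).

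The genes and lists were chosen with earlier results of these data known. By rule every imprinted gene was accounted for, folds were given where called (in embryos for the 6 smallest p), and from the 2 lists of related genes up to 4 called genes per comparison could be named. Members further described as not called, and Zfp57, Uhrf1, Dnmt3b and Dppa3 in embryos, were named after their values were seen. RefSeq promoter windows are in GRCm38.p6, while the counts were made with mm9. The overlapping pairs of genes come from RefSeq coordinates and not from the annotation used for counting, which is not given.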

Additional observations from a re-analysis of the deposited data

Results flagged for a closer look

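Among the 17 imprinted genes that averaged 10 CPM or more in the embryos, 4 had a single null embryo whose gap to the nearest of the other 3 exceeded Dixon's 95% critical value. By the same rule 512 of all 7837 genes at this level (6.53%) did so, and chance flags about 1 in 20 groups. For the 4 imprinted genes it was null embryo M2 each time, as it was for 39.8% of the 512 genes. M2 also lacked the most genes. Nap1l4 was at 66.9 CPM in M2 and at 203 to 229 CPM in the other null embryos. Copg2 was at 1.75 CPM in M2 against 43.2 to 51.2 CPM. Grb10 was at 35.4 CPM in M2 against 0.732 to 3.79 CPM, and H13 at 38.6 CPM against 13.7 to 16.3 CPM.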

How the results depend on the processing

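Counts of called imprinted genes depended most on the number of lines. With 1 line left out they ranged from 9 to 21 (19 with all lines) for ES against TS, from 10 to 23 (20) for ES against XEN and from 9 to 15 (15) for TS against XEN. They moved by over 1.5 times without ES_F1 (9) or ES_M2 (10) in ES against TS, without ES_F1 (11), ES_M2 (10) or XEN_M1 (12) in ES against XEN, and without XEN_M2 (9) in TS against XEN. Shares of all tested genes fell as well, from 41.3% to 15.8% and 18.5% without ES_F1 or ES_M2 in ES against TS, from 45.1% to 26.5%, 26.1% and 34.3% without ES_F1, ES_M2 or XEN_M1 in ES against XEN, and from 36.7% to 26.3% without XEN_M2 in TS against XEN. With the 14 libraries as units and a replicate block for passage the counts were 25, 26 and 21, and the same without the block, which changed no count. DESeq2, limma voom, RLE scaling and no filter gave 12 to 22. Line differences at a 2-fold limit numbered 3 in ES, 28 in TS and 9 in XEN, in place of 0, 18 and 4, beside 6.18%, 27.9% and 11.8% of all genes. In the line comparisons no named gene reversed, and 30, 52 and 38 of 262, 277 and 207 values lost their call. In embryos all alternatives called 0 imprinted genes. Inpp5f reversed to a log2 fold change of -0.17 without null embryos F1 and M2, a setting chosen after seeing the data, as was leaving out the second library of XEN_M2. The cause was not tested. Depth limits genes near 1 CPM, and with 2 lines in a group 1 line can decide a call.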

Other observations

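A further list held 48 symbols, some of them aliases, of genes reported as imprinted in mice, some in single tissues only. It had 34 tested genes. Of these 7 were higher and 9 lower in ES against TS, 11 higher and 6 lower in ES against XEN, and 11 higher and 8 lower in TS against XEN. The called shares were 47.1%, 50% and 55.9%, against 41.3%, 45.1% and 36.7% of all tested genes. Slc38a4, an amino acid transporter imprinted in the placenta, had the smallest p of the list in 2 of these comparisons, lower in ES than in TS by a log2 fold change of -6.04 (SE 0.46, edgeR adjusted p = 0.000218) and higher in TS than in XEN by 10.48 (SE 0.58, adjusted p = 5.22e-05). It was higher in ES than in XEN by 4.44 (SE 0.50, adjusted p = 0.000577). Zdbf2 was higher in ES than in XEN by 5.05 (SE 0.80, adjusted p = 0.00233), and Wars, a tryptophan tRNA synthetase, was higher in XEN than in ES by a log2 fold change of -2.15 for ES against XEN (SE 0.19, adjusted p = 0.000230). In embryos 0 of the 25 tested genes of this list were called, and 0 had an unadjusted p under 0.05.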
